A study of Mus musculus with 3 samples.

Results

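The semaphorins, their plexin receptors and the neuropilin co-receptors were examined in RNA from mouse spinal cords at embryonic day 13.5. Members were all genes of the deposited gene table whose symbol is that of a class 3 to 7 semaphorin, an A, B, C or D plexin or a neuropilin. This gave 31 of 51826 genes, namely 20 semaphorins, 9 plexins and 2 neuropilins. All 31 had at least 20 counts in at least 1 library, and the lowest, Plxnb3, still had 62, 50 and 39 counts in the dE3, cKO and WT libraries.

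Each of the 3 genotypes was represented by 1 library. The dE3 embryos carried Nestin-Cre and a Ctnnb1 allele with exon 3 floxed, which the labels call a gain of function. The cKO embryos carried Nestin-Cre and a Ctnnb1 allele with exons 2 to 6 floxed, labelled a loss of function. The remaining library was from wild type (WT) embryos, with no Cre named, and all embryos were of C57BL/6 background. Ctnnb1 encodes β-catenin, which relays Wnt signals to the nucleus and binds cadherins. The Nestin promoter drives Cre in neural progenitors, and which cells of these embryos recombined was not measured here. The number of embryos in each library is not given. With 1 library per genotype there was no spread between replicates and no test. The values compare 3 libraries, and the intervals given are 95% intervals for counting error alone.

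Semaphorins share a sema domain and steer growing axons, migrating cells and vessels. Class 3 members are secreted and mostly act through a neuropilin, which holds the ligand, and an A plexin, which carries the signal across the membrane. Classes 4 to 7 are bound to the cell surface and bind plexins directly. In the embryonic spinal cord this system keeps sensory axons out of the ventral cord, bundles motor axons and guides commissural axons after they cross the midline.

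The libraries held 34790053 (dE3), 33048837 (cKO) and 32167470 (WT) counts. Ctnnb1 stood at 461 CPM (counts scaled to a common library size) in dE3, 422 in cKO and 544 in WT. This was 0.847 of WT in dE3 (interval 0.829 to 0.866) and 0.776 of WT in cKO (0.758 to 0.793), and a summed count over the gene does not show which exons were read. Among 10 targets of Wnt signalling, 9 exceeded their WT value 2-fold or more in dE3, and 1 did in cKO. Over all measured genes, 6.52% did so in dE3 and 3.5% in cKO. The 11 Hox genes of spinal level summed to 1001, 1003 and 1088 CPM in dE3, cKO and WT. In dE3 against WT 0 of 11 were called, beside 3.78% of all measured genes lower and 6.52% higher. Against WT, 1 was called lower in cKO (Hoxa5, ratio 0.492), beside 3.41% of all measured genes. In cKO against WT, Hoxc5 stood at 0.503 and Hoxb4 at 0.635, against 1.38 for Hoxd9 and 1.28 for Hoxc10, and the part of such differences in the values below was not tested. The 8 forebrain and midbrain markers summed to 11.8 CPM in dE3, 12.4 in cKO and 10.9 in WT. Of these, 4 were measured, and 2 (Emx2 and Otx1) were called higher in dE3 against both WT and cKO, while Otx2 was at 0 in all 3 libraries. Over all measured genes, 6.52% were called higher in dE3 against WT and 6.62% in dE3 against cKO. Markers of tissues outside the neural tube also differed. The 14 listed skeletal muscle markers summed to 199 CPM in dE3, 51.8 in cKO and 15.6 in WT, where Myf5, Myf6, Tnni1 and Ckm were at 0. Cartilage and vertebra markers (13) summed to 1211, 573 and 267 CPM, and meninges and mesenchyme markers (13) to 1469, 1709 and 789.5 CPM in the same order. In bulk RNA, fewer cells of a type and less RNA per cell cannot be told apart.

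Levels between genes were compared in the deposited TPM, which divide counts by transcript length and scale each library to the same total. Of the 8 members with the highest mean TPM, 5 were plexins (Plxna2, Plxnb2, Plxna1, Plxna3 and Plxnb1), 1 was a neuropilin (Nrp2) and 2 were semaphorins (Sema6c and Sema4g). Summed over their 31 members, the families held 1684 TPM in dE3, 1718 in cKO and 1700 in WT. The 20 semaphorins summed to 754.0 TPM in dE3, 815.0 in cKO and 810.2 in WT, and the 9 plexins to 673.9, 676.8 and 685.7 TPM.

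**Figure D1:**
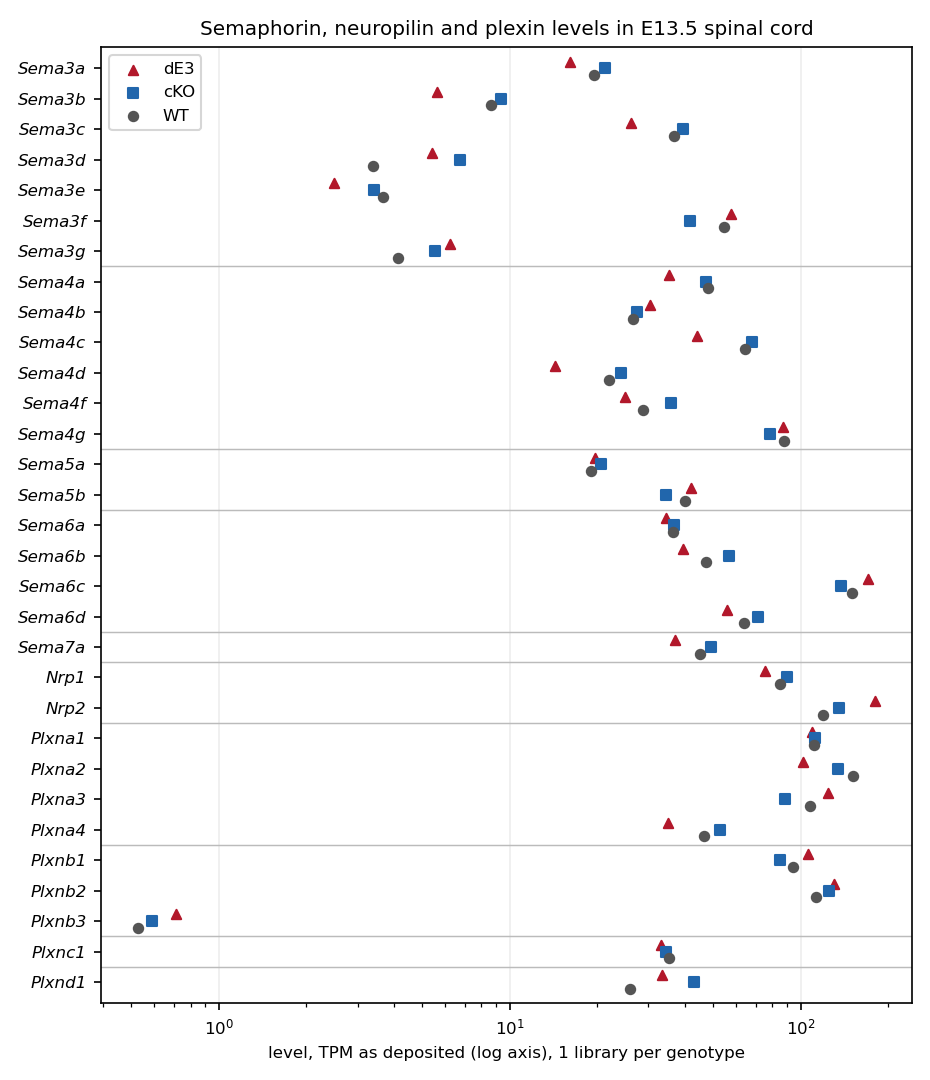
Deposited TPM (log axis) of the 31 semaphorin, neuropilin and plexin genes in the dE3 (triangles), cKO (squares) and WT (circles) libraries, 1 library per genotype, with lines between classes. Most genes lie between 10 and 200 TPM with their 3 symbols close together, and Plxnb3 stands apart at 0.71, 0.59 and 0.53 TPM.

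A gene was called when its scaled counts differed at least 2-fold and the interval of the ratio left out 1. In dE3 against WT, 1 of the 31 members was called lower, Sema3a, and 0 were called higher. Over all 18074 measured genes, 3.78% were called lower and 6.52% higher. In cKO against WT, 0 members were called in either direction, where 3.5% of all genes were called higher and 3.41% lower. In dE3 against cKO, Sema3a was again called lower and 0 members were higher, with 4.38% of all genes called lower and 6.62% higher. The comparisons share libraries, so the repeated appearance of Sema3a is not independent. A count of 1 in 31 lies near the shares of all genes, and is no result about these families.

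Smaller differences were counted at a threshold of 1.5-fold. In dE3 against WT, 5 members were lower (Sema3a, Sema3b, Sema4c, Sema4d and Plxna2) and 1 was higher (Sema3d), beside 8.01% of all genes lower and 11.4% higher. In cKO against WT, 0 were lower and 2 were higher (Sema3d and Plxnd1), beside 6.67% and 7.2% of all genes. In dE3 against cKO, 7 were lower (Sema3a, Sema3b, Sema3c, Sema4c, Sema4d, Sema4f and Plxna4) and 0 were higher, beside 9.53% and 12.5% of all genes.

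The median log2 ratio of the 20 semaphorins was -0.19 in dE3 against WT, 0.10 in cKO against WT and -0.37 in dE3 against cKO. That of the 9 plexins was 0.01, -0.01 and -0.05 in the same comparisons. Over all measured genes the medians were 0.00, 0.00 and 0.02. Among the semaphorins, 13 of 20 were below their WT level in dE3, against 6 of 20 in cKO, most of them by less than 1.5-fold.

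**Figure D2:**
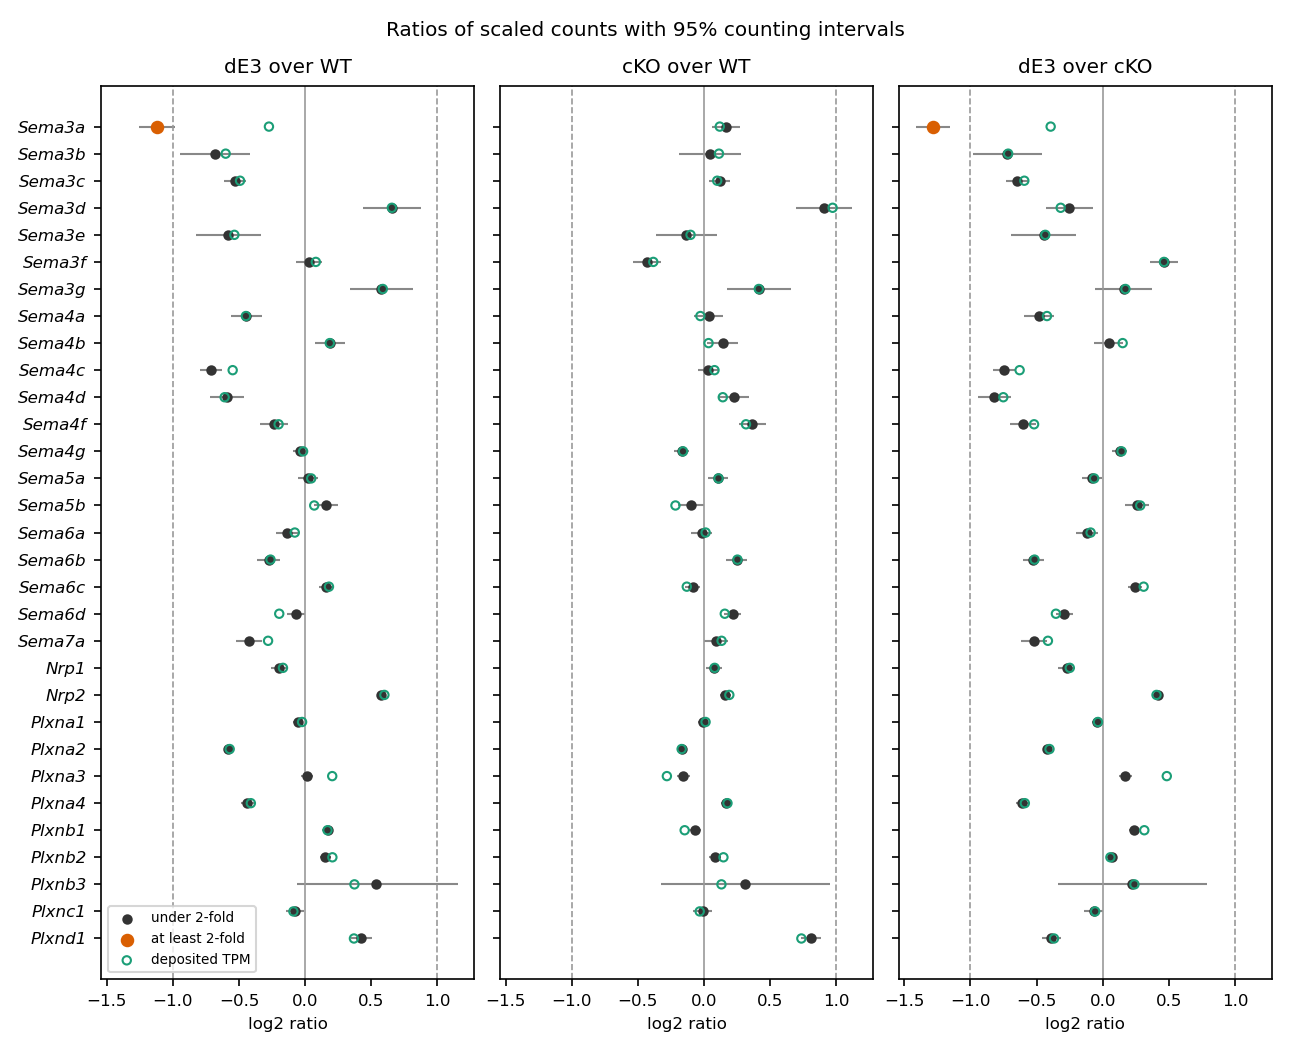
Log2 ratios of scaled counts for each member in dE3 over WT, cKO over WT and dE3 over cKO, with 95% counting intervals as horizontal lines, dashed lines at 2-fold and open circles for the same ratio from deposited TPM. Sema3a lies beyond 2-fold in the first and last panels by scaled counts, while its TPM ratios lie at -0.27 and -0.39.

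Sema3a (ENSMUSG00000028883, chromosome 5, 13125414 to 13602565, plus strand, GRCm38) encodes the secreted ligand that collapses growth cones through Nrp1 and A plexins, and in the mouse spinal cord it is made by motor neurons among other ventral cells. It had 698 counts in dE3, 1603 in cKO and 1383 in WT, or 19.9, 48.5 and 43.3 CPM. The dE3 library was the low one, and cKO and WT lay close together. Scaled counts were 2.17-fold lower in dE3 than in WT (1.98 to 2.38) and 2.44-fold lower than in cKO (2.23 to 2.67). The ratio of cKO to WT was 1.12 (1.04 to 1.21). In deposited TPM the same gene stood at 16.1 in dE3, 21.2 in cKO and 19.5 in WT, a log2 difference of -0.27 between dE3 and WT. The 2 units therefore gave differences of unlike size, and only the scaled counts passed 2-fold.

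The deposited transcript table showed where the units part. The full model Sema3a-201 has 17 exons, 5930 bases and a coding length of 2316. The model Sema3a-204 has 18 exons and 2285 bases, and it stops inside the coding region of the last exon, at position 13599348, with no stop codon. Sema3a-201 runs on to 13602565, with 2965 bases after its coding end at 13599600. The stretch below ends the coding region of Sema3a-201 (chr5:13599301-13599600, plus strand, GRCm38, GENCODE vM21) and is shown because it holds the point where the models diverge. Lower case marks the bases that both models hold, and capitals mark those that only Sema3a-201 holds, which encode the basic carboxy terminus of the ligand.
Sema3a-201 end of coding region: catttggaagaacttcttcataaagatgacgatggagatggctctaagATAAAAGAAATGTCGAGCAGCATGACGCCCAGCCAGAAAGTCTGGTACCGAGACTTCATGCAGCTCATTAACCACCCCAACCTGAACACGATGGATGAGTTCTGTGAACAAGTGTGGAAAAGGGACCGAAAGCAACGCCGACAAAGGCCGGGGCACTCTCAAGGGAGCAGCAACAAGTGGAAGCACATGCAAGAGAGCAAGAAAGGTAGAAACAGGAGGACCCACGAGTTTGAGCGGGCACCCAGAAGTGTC

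The transcript Sema3a-201 took 298 counts in dE3, 1544 in cKO and 1302 in WT. That was 42.7% of the gene's counts in dE3 (Wilson interval 39.1 to 46.4), 96.3% in cKO (95.3 to 97.1) and 94.1% in WT (92.8 to 95.3). Sema3a-204 took 320 counts in dE3, 25 in cKO and 36 in WT, or 45.9%, 1.56% and 2.60% of the gene's counts. The full model was thus 4.79-fold lower in dE3 than in WT (4.22 to 5.45), and the shorter model 8.10 times as high (5.73 to 11.8). Against cKO, the full model was 5.50-fold lower in dE3 (4.85 to 6.25) and the shorter one 12.1 times as high (8.02 to 18.9).

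The models share most of their bases, since 93.8% of the 50-base words of Sema3a-204 occur in Sema3a-201. Reads from shared bases had to be divided between them by the authors' estimate. Reads along the gene were not analysed here, so the divided counts do not show whether RNA of the shorter form was present. Because Sema3a-204 is short, each of its counts weighs more in TPM, and it gave 10.0 of the gene's 16.1 TPM in dE3, against 0.79 of 21.2 in cKO and 1.22 of 19.5 in WT.

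**Figure D3:**
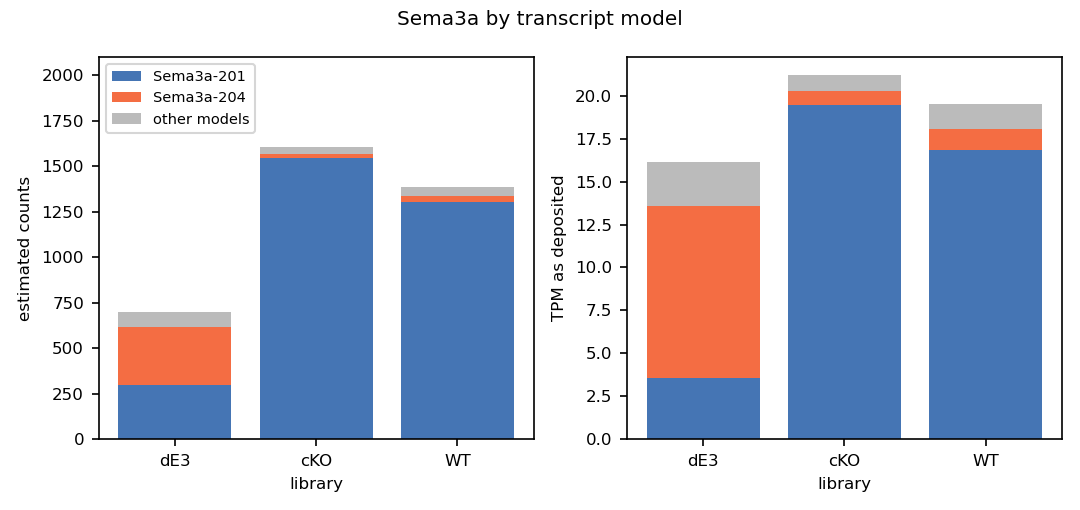
Estimated counts (left) and deposited TPM (right) of Sema3a in the dE3, cKO and WT libraries, stacked by transcript model: Sema3a-201, Sema3a-204 and all others. In counts the dE3 bar reaches 698 against 1383 for WT, and in TPM it reaches 16.1 against 19.5, with most of it from Sema3a-204.

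Since motor neurons are a known source of Sema3a, their markers are given beside it. The 8 motor neuron markers, all above 0 in every library, summed to 235 CPM in dE3, 489.5 in cKO and 321 in WT. Prph alone gave 113, 276 and 150 CPM of these sums. Ratios of cKO to WT ran from 0.980 for Chat to 1.84 for Prph, so the sums do not stand for every marker. Of the 8 markers, 0 were called in dE3 against WT. Lower calls in dE3 against cKO numbered 3, beside 4.38% of all genes. The median log2 ratios were -0.51 and -0.87. The 12 pan-neuronal markers summed to 8956, 11230 and 10470 CPM in dE3, cKO and WT, and the 11 measured dorsal root ganglion markers to 730.4, 1033 and 916.9 CPM, with none at 0 in any library. Among the ganglion markers 0 were called in dE3 against WT and 2 were called higher in cKO against WT, beside 3.5% of all genes. The part of these cell types in the Sema3a values was not tested.

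The other secreted semaphorins differed less. Members named from here on that were not among the 8 highest by mean TPM were chosen after their values were seen. Sema3b, a repellent that signals through Nrp2, was at 5.76 CPM in dE3, 9.51 in cKO and 9.23 in WT. It was 1.60-fold lower in dE3 than in WT (1.33 to 1.93), on 202 and 295 counts. Sema3c, which can attract as well as repel axons, was at 55.1, 86.4 and 79.6 CPM in dE3, cKO and WT. In both, dE3 was the lowest library, with cKO beside WT. Sema3e, the ligand that binds Plxnd1 without a neuropilin, was at 6.82, 9.30 and 10.2 CPM in dE3, cKO and WT, a ratio of dE3 to WT of 0.668 (0.563 to 0.792).

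Sema3d and Sema3g went the other way. Sema3d, a ligand of neuropilins, was at 13.6 CPM in dE3, 16.2 in cKO and 8.64 in WT, which was 1.58 times WT in dE3 (1.36 to 1.83) and 1.88 times WT in cKO (1.62 to 2.18). Sema3g, a ligand known from vessel walls, was at 11.4, 10.2 and 7.64 CPM in dE3, cKO and WT. Both mutant libraries were above WT for these genes, as they were for the summed mesenchyme, cartilage and skeletal muscle markers. Of the mesenchyme markers, 4 of 13 were called higher in dE3 and 4 of 13 in cKO, beside 6.52% and 3.5% of all genes. For cartilage these counts were 12 and 9 of 13, and for muscle 12 and 9 of 12 measured. None of the 13 mesenchyme markers was at 0 in any library. The part of these tissues in the Sema3d and Sema3g values was not tested.

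Sema3f, which repels Nrp2-bearing axons, was the class 3 gene with the highest TPM in all 3 libraries. It was at 53.4 CPM in dE3, 38.8 in cKO and 52.4 in WT, a cKO ratio to WT of 0.740 (0.688 to 0.797). Here cKO was the low library, and dE3 and WT differed by less than the counting error (ratio 1.02, 0.954 to 1.09). Summed by class, the 7 secreted genes held 119.7 TPM in dE3, 127.4 in cKO and 130.5 in WT.

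Of the 6 class 4 semaphorins, which span the membrane and act mainly on B plexins, 5 had ratios below 1 in dE3 against WT. Sema4g (chromosome 19, 44989101 to 45003397, plus strand), the highest of the class by mean TPM, was at 158 CPM in dE3, 145 in cKO and 162 in WT, or 86.9, 78.7 and 87.9 TPM. Its ratio of dE3 to WT was 0.973 (0.937 to 1.01) and that of cKO to WT 0.891 (0.857 to 0.927). Sema4g thus varied little. The model Sema4g-202, annotated for nonsense-mediated decay, held 59.2, 53.2 and 57.5 of the gene's TPM in dE3, cKO and WT. Sema4c, a ligand of Plxnb2, was at 55.4 CPM in dE3, 92.9 in cKO and 91.0 in WT, 1.64-fold lower in dE3 than in WT (1.55 to 1.74). Sema4d, the best known ligand of Plxnb1, was at 24.3, 42.9 and 36.6 CPM, a ratio of dE3 to WT of 0.665 (0.608 to 0.727), and was 1.76-fold lower in dE3 than in cKO (1.62 to 1.92).
Sema4f was at 38.8 CPM in dE3, 58.9 in cKO and 45.7 in WT, and it was 1.52-fold lower in dE3 than in cKO (1.42 to 1.63). The class summed to 235.8 TPM in dE3, 281.4 in cKO and 277.7 in WT, with a median log2 ratio of -0.34 in dE3 against WT. For Sema4c, 7.27% of exon bases overlap a gene on the opposite strand, D430040D24Rik, which had 217, 233 and 209 counts.

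Sema6c was the member with the highest mean TPM, summed over all its models, coding or not. Class 6 semaphorins span the membrane and act through A plexins, and in the mouse spinal cord Sema6c and Sema6d shape the entry of proprioceptive axons through Plxna1. Sema6c (chromosome 3, 95160457 to 95174024, plus strand) had 5958 counts in dE3, 4740 in cKO and 4863 in WT, or 170.2, 137 and 150.3 TPM. Its scaled counts in dE3 were 1.12 times those in WT (1.08 to 1.16), and in cKO 0.943 of those in WT (0.906 to 0.982). The 4 class 6 genes summed to 299.9, 301.8 and 297.9 TPM in dE3, cKO and WT. The 2 class 5 genes, which carry thrombospondin repeats, summed to 61.7, 55.1 and 59.1 TPM, and their log2 ratios lay between -0.10 and 0.16 in both mutants against WT. Sema7a, held in the membrane by a lipid anchor and a ligand of Plxnc1 and of integrins, was at 44.9 CPM in dE3, 64.3 in cKO and 60.3 in WT, 1.34-fold lower in dE3 than in WT (1.26 to 1.44).

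The neuropilins differed from each other. Nrp2 (chromosome 1, 62703285 to 62818695, plus strand), the co-receptor for Sema3f and Sema3b, was at 437 CPM in dE3, 328 in cKO and 293 in WT, or 180.4, 136 and 119 TPM. It was 1.49 times WT in dE3 (1.45 to 1.53), just under the 1.5-fold mark, and 1.12 times WT in cKO (1.09 to 1.15). Nrp1, the co-receptor for Sema3a and for VEGF, was at 108 CPM in dE3, 131 in cKO and 124 in WT, 0.872 of WT in dE3 (0.834 to 0.912). The ratio of Nrp2 to Nrp1 in TPM was therefore 2.38 in dE3, 1.51 in cKO and 1.40 in WT. As both genes are also used by vessels, the 11 endothelial markers are given beside them. They summed to 291 CPM in dE3, 376 in cKO and 261 in WT with none at 0 and 0 of 11 called in either mutant against WT, and their part in the neuropilin values was not tested.

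Among the A plexins, the signal-carrying receptors for class 3 and class 6 ligands, Plxna2 stood out. Plxna2 (chromosome 1, 194618218 to 194816869, plus strand) was at 433 CPM in dE3, 580 in cKO and 650 in WT, or 102, 135 and 151 TPM, a ratio of dE3 to WT of 0.666 (0.652 to 0.680). All 3 libraries differed beyond counting error, with dE3 lowest and WT highest. Its ratio of cKO to WT was 0.892 (0.875 to 0.910).
Plxna1 (chromosome 6, 89316314 to 89362620, minus strand) was at 387 CPM in dE3, 399 in cKO and 402 in WT, or 109.6, 112 and 111 TPM, with ratios to WT of 0.962 (0.939 to 0.985) and 0.993 (0.969 to 1.02). Of its exon bases, 10.7% overlap the antisense gene Gm26811. Plxna1 was close to level in the 3 libraries. Plxna3 (chromosome X, 74329066 to 74344689, plus strand) was at 226 CPM in dE3, 201 in cKO and 224 in WT, or 124, 88.5 and 107.5 TPM. The coding model Plxna3-201 held 71.1, 69.0 and 75.0 of these TPM. The retained-intron model Plxna3-209 had 426, 14 and 41 counts in dE3, cKO and WT. By scaled counts of the gene, the ratio of dE3 to WT was 1.01 (0.978 to 1.04) and of cKO to WT 0.897 (0.868 to 0.928). Plxna4, which with Plxna3 transmits Sema3a signals in sensory neurons, was at 181 CPM in dE3, 275 in cKO and 245 in WT, 1.52-fold lower in dE3 than in cKO (1.47 to 1.57). Summed, the A plexins held 370.4 TPM in dE3, 388.3 in cKO and 416.9 in WT.

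The B plexins, receptors for class 4 ligands, had ratios of dE3 to WT above 1 in 3 of 3 genes. Plxnb2 (chromosome 15, 89155549 to 89171120, minus strand) was at 305 CPM in dE3, 291 in cKO and 274 in WT, or 130.2, 125 and 113 TPM, a ratio of 1.11 (1.08 to 1.14) for dE3 and 1.06 (1.03 to 1.09) for cKO. Plxnb1 (chromosome 9, 109095389 to 109119917, plus strand) was at 312, 265 and 277.5 CPM, or 106, 85.2 and 94.2 TPM, a ratio of 1.12 (1.09 to 1.16) for dE3 and 0.954 (0.927 to 0.983) for cKO. Neither gene differed by 1.5-fold in any comparison. Plxnb3 was near the detection limit, its intervals included 1 in every comparison, and 62, 46 and 31 of its 62, 50 and 39 counts fell on a retained-intron model. Plxnc1, the receptor of Sema7a, was at 93.3 CPM in dE3, 97.8 in cKO and 98.5 in WT.

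Plxnd1, the receptor of Sema3e and best known from vessels, was at 89.6 CPM in dE3, 117 in cKO and 66.8 in WT. Both mutant libraries were above WT, with ratios of 1.34 in dE3 (1.27 to 1.42) and 1.75 in cKO (1.66 to 1.85). The order of the libraries was that of the summed endothelial markers (291, 376 and 261 CPM), with cKO highest and WT lowest. The same order held for the meninges and mesenchyme sum (1469, 1709 and 789.5 CPM). The microglia and macrophage sum was also highest in cKO, with dE3 and WT nearly level (81.1, 111.7 and 80.2 CPM in dE3, cKO and WT). A highest value in cKO was thus not particular to vessels. These sums do not stand for every marker. Pecam1, Lum and Twist1 were highest in dE3, while Cdh5 and Col1a1 were highest in cKO and lowest in WT. The part of vessels or of these other cell types in the Plxnd1 values was not tested.

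**Figure D4:**
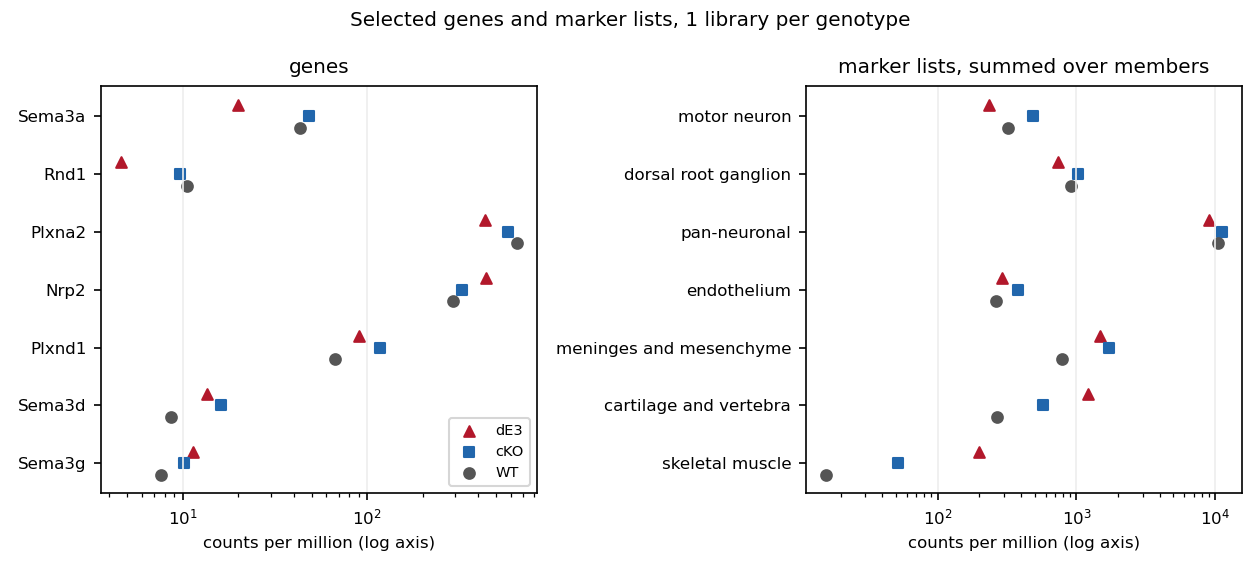
CPM (log axes) of 7 genes (left) and summed CPM of 7 marker lists (right) in the dE3, cKO and WT libraries, 1 library per genotype. Sema3a and the effector gene Rnd1 are lowest in dE3, as are the summed motor neuron, dorsal root ganglion and pan-neuronal markers. Plxnd1 and Sema3d are highest in cKO, as are the endothelial and mesenchymal sums. The sums do not stand for every marker.

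Genes that work with these receptors were counted from 2 lists. Of 14 partners and co-receptors, 13 were measured and 0 were called in any of the 3 comparisons, with median log2 ratios of 0.12 in dE3 against WT and 0.30 in cKO against WT. L1cam, the adhesion molecule that pairs with Nrp1, was at 130 TPM in dE3, 158 in cKO and 174 in WT. Nrcam, its relative that pairs with Nrp2, was at 132.5, 157 and 139 TPM, and Itgb1, the integrin chain that Sema7a engages, was at 161, 134 and 122 TPM. By scaled counts, L1cam was at 0.735 of its WT level in dE3 (0.713 to 0.758) and Itgb1 at 1.32 times (1.28 to 1.37). Nrcam was lowest in cKO by scaled counts, at 235 CPM in dE3, 221 in cKO and 239.9 in WT (cKO ratio to WT 0.921, 0.892 to 0.951), although cKO was highest in TPM.

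Of 28 effectors and signal transducers, all measured, 1 was called lower and 0 higher in dE3 against WT, 1 higher and 0 lower in cKO against WT, and 1 lower and 0 higher in dE3 against cKO. The matching shares of all genes were 3.78% lower, 3.5% higher and 4.38% lower. A count of 1 in 28 lies near these shares and is no result about the effectors. Rnd1, a small GTPase that binds plexins, had 162 counts in dE3, 320 in cKO and 338 in WT. Its ratio of dE3 to WT was 0.437 (0.360 to 0.529) and of dE3 to cKO 0.477 (0.392 to 0.578). Rnd1 was low in the library that was low for Sema3a, and a link between the genes was not tested. Fes, a tyrosine kinase that acts below A plexins, had 173 counts in dE3, 228 in cKO and 104 in WT, a ratio of cKO to WT of 2.12 (1.68 to 2.70).
The effectors with the highest TPM were the actin-severing protein Cfl1 and the collapsin response mediators Dpysl3 and Crmp1. Cfl1 was at 2340 TPM in dE3, 2507 in cKO and 2249 in WT. Crmp1 was at 1026, 1356 and 1248 TPM, and Dpysl3 at 1120, 1434 and 1312 TPM. By scaled counts Crmp1 was at 0.805 (0.795 to 0.816) and Dpysl3 at 0.848 (0.839 to 0.856) of WT in dE3, with the pan-neuronal sum also lowest there. Not every pan-neuronal marker was lower in dE3, with Map2 at 1.36 times WT and Tubb3 at 1.005 times. Over the 12 pan-neuronal markers the median log2 ratio of dE3 to WT was -0.37. The effectors' median log2 ratio was -0.04 in dE3 against WT and 0.04 in cKO against WT.

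Transcript use was compared in genes with several models and at least 200 counts in each library, by the largest difference in any model's share of the gene's counts. Of 28 such members, 3 differed by at least 25 percentage points in dE3 against WT (Sema3a, Sema3b and Sema4d), against 10.6% of all 9597 such genes. In cKO against WT, 3 differed (Sema3f, Sema4a and Sema4d), against 11.3%, and in dE3 against cKO, 3 (Sema3a, Sema3b and Sema4a), against 11.1%. These shares are near those of all genes.
For Sema3b the counts switched between near-identical models. Sema3b-201 held 154 counts in dE3 and 0 in cKO and WT, while Sema3b-202 held 0 in dE3, 281 in cKO and 267 in WT. As 91.7% of the words of the first model occur in the second, and both have a coding length of 2247, the division between them rests on few bases. For Sema4d, Sema4d-202 held 76.6% of counts in dE3, 85.5% in cKO and 23.9% in WT, with 94.2% of its words in Sema4d-201. In Sema3f, the model Sema3f-204 held 29.6% of counts in dE3, 18.5% in cKO and 52.8% in WT. Outside the 25-point limit, Sema6b-202 had 471 counts in dE3, 94 in cKO and 5 in WT, beside 1616, 2733 and 2300 for Sema6b-201.

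The 250 bases before each annotated start were searched for the TCF/LEF motif, the DNA letters bound by β-catenin's partners, as CTTTGAA or CTTTGAT on either strand. RefSeq windows (GRCm38.p6) existed for 26 of the 31 genes, and 2 of these (7.69%) held a match, against 2333 of 27025 genes (8.63%) in all. By window this was 2 of 37 (5.41%) against 7.48%. The matches lay before Nrp2, 146 bases from its start site, and before Sema3e, 119 bases from its start site. Both windows are shown with the match in capitals, that of Sema3e reading as the reverse complement.
Nrp2, chr1:62703067-62703284, plus strand: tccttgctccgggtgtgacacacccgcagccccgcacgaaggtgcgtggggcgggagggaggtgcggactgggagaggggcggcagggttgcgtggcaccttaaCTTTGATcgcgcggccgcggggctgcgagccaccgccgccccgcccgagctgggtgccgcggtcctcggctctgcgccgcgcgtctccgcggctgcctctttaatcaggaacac
Sema3e, chr5:14025026-14025275, plus strand: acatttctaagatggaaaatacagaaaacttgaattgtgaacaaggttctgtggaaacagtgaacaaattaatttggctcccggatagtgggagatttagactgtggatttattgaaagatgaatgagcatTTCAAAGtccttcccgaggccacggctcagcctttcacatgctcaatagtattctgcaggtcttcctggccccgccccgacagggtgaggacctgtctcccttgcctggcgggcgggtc
Nrp2 was higher in dE3 than in WT and Sema3e lower, by the ratios above. The Nrp2 letters stop where the gene's first annotated transcript begins, and the model with most of its counts, Nrp2-202, starts farther downstream.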

How the data were processed

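RNA of 3 spinal cord libraries was extracted with Trizol and made into mRNA libraries with a VAHTS kit, per the labels' protocols. CASAVA, Bowtie2 2.3.2 and GRCm38.p6 appear, with no roles, among the submitters' processing notes. Not given in the sources used here are the quantification tool, the annotation release and the use of strand, so antisense and overlapping genes cannot be told apart. The authors deposited estimated counts per gene and transcript (whole numbers), TPM and FPKM, named per the file headers. The FPKM values that the authors deposited were not used further. For all 51826 genes the gene count was the sum over its transcripts.

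Counts were scaled by TMM (edgeR 4.0.16, R 4.3.3), with factors of 1.01 (dE3), 0.999 (cKO) and 0.993 (WT), over the 18074 genes with at least 20 counts in at least 1 library. Ratios have exact conditional binomial (Clopper-Pearson) intervals and shares Wilson intervals, both at 95%. Reads carried no molecular identifiers and so may repeat a molecule, and intervals cover counting error only. No p-value was computed. The tag L2 stands in the names of the dE3 and WT libraries and L3 in that of cKO. Its meaning is not given, and it cannot be told apart from the cKO genotype. Sequences and positions came from GENCODE vM21 and RefSeq, both on GRCm38. Of the member genes, 9 are named in every library by rule: those called at 2-fold and the 8 with the highest mean TPM. From the partner and effector lists the rule takes called genes and 3 others of highest mean TPM. The members, lists and rules were chosen with earlier results of these data known. Alternatives were DESeq2 1.42.0 size factors, total counts, TPM (pseudocount 0.1), other count minimums, a 1.5-fold threshold and changes to the transcripts summed.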

Additional observations from a re-analysis of the deposited data

How the results depend on the processing

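No paired analysis was possible because each genotype has 1 library, and for the same reason no library could be left out. Under DESeq2 size factors, total counts, totals without mitochondrial, muscle, cartilage and globin genes, and with transcript counts of 1 set to 0, all 93 member ratios stayed within their intervals, the largest shift being 0.03 (log2). The counts of called members were also unchanged with no count minimum and with a minimum of 100. At 1.5-fold, 1 member was higher and 5 lower in dE3 against WT, 2 higher in cKO against WT and 7 lower in dE3 against cKO. With deposited TPM at the 2-fold threshold, 0 were lower in dE3 against WT and 0 in dE3 against cKO, and 16 of 93 ratios left their intervals. Beyond 1.5-fold in TPM, Sema3b (log2 ratio -0.60) and Sema4d (-0.61) stayed lower and Sema3d (0.66) higher in dE3 against WT. When the transcript whose counts differed most was dropped from each gene, 6 members were higher and 2 lower in dE3 against WT, 4 higher and 2 lower in cKO against WT, and 5 higher and 3 lower in dE3 against cKO. That transcript was chosen from the same 2 libraries, so movement was built in, and 76 of 93 ratios moved. Some genes kept few counts, such as Sema7a, left with Sema7a-202 at 20 counts in dE3 and 1 in WT. The setting was run on members only, so these counts have no share of all genes beside them and do not measure robustness. Sema3a reversed under it, to log2 ratios of 2.17 in dE3 against WT and 2.68 in dE3 against cKO, because Sema3a-201 was the transcript dropped. The 2-fold call on Sema3a thus rests on the sum over transcripts, and low counts limit Plxnb3.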

Other observations

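Nrp1 and Nrp2 also bind vascular endothelial growth factors, and these genes were counted from a list of 8 ligands and receptors, all measured. In dE3 against WT 1 was called higher and 0 lower, in cKO against WT 0 were called, and in dE3 against cKO 1 was called higher. Over all genes, 6.52% were called higher in dE3 against WT and 6.62% in dE3 against cKO. Vegfd, a ligand for lymphatic vessels, had 42 counts in dE3, 7 in cKO and 17 in WT, a ratio of dE3 to WT of 2.25 (1.26 to 4.22) and of dE3 to cKO of 5.65 (2.52 to 14.9). These are few counts with wide intervals. Vegfa, the main ligand of Kdr and Nrp1, was at 50.4 TPM in dE3, 38.9 in cKO and 50.7 in WT. Vegfb was at 53.7, 69.3 and 67.8 TPM, and the receptor Kdr at 24.7, 30.9 and 22.4 TPM.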
